A study of Mus musculus with 6 samples.

Results

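The genes described here are 10 markers and products of goblet cells, the mucus-secreting cells of the intestinal epithelium: Muc2, Tff3, Clca1, Fcgbp, Agr2, Spdef, Zg16, Creb3l1, Creb3l4 and Capn9. They were taken by symbol from array rows annotated to exactly 1 gene, and 9 of the 10 had such a row among 19938 genes tested. Fcgbp, a mucus protein that binds Muc2, was listed on 3 rows together with other genes and has no value of its own here. RNA came from total epithelial cells prepared from mouse jejunum, a part of the small intestine, and was measured on whole-transcript gene arrays. The 3 transgenic animals carried R26-M2rtTA, which is a transcription activator placed at the Rosa26 locus that works when doxycycline is present, together with a TRE-driven Musashi transgene that answers to it. The 3 control animals carried R26-M2rtTA without that transgene. All 6 animals had doxycycline in the drinking water for 24 h, and no array came from an animal without the drug. Rosa26 is active in most cell types, so the activator is not limited to goblet cells. The labels give no age, sex or strain. The series text calls the transgene TRE-Msi1, whereas TRE-MSI2 stands in the genotype labels.

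Goblet cells arise from secretory progenitors of the crypt, and Spdef drives their maturation. They build the gel mucin Muc2 in the endoplasmic reticulum, where Agr2, a protein disulfide isomerase, is needed to produce it. Secreted partners such as Tff3, Clca1, Zg16 and Fcgbp then form the mucus layer with it. Creb3l1 and Creb3l4 belong to a family of membrane-bound transcription factors that are cut free in the secretory pathway.

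Values are log2 signals, on which a difference of 1 is a doubling, and differences are transgenic minus control. A gene passed at a limma p under 0.05 after Benjamini-Hochberg adjustment over all 19938 genes, and adjusted p below means this value. Msi1 had 12.51, 12.68 and 12.62 on the transgenic arrays, against 6.95, 7.03 and 6.86 on the controls, and Msi2 was 8.57, 8.08 and 8.01 in transgenic against 8.59, 8.71 and 8.62 in control epithelium. The arrays therefore followed the series text, with Msi1 raised on every array labelled transgenic. Transgenic replicate 1 was unlike the rest: across genes it correlated with the other 5 arrays at 0.922 to 0.951, while controls correlated with each other at 0.995 to 0.996 and transgenic replicates 2 and 3 at 0.996. Results below are therefore given with all arrays, and with that array left out for each goblet cell gene of the set, for each list's counts and wherever the value moved clearly. With all arrays 2368 genes passed. The number was 5700, 1169 or 1759 without transgenic replicate 1, 2 or 3, and leaving out control 1, 2 or 3 gave 683, 728 or 879. With 3 arrays a group the smallest two-sided p of an exact permutation test is 0.1, so that test cannot pass 0.05 for any gene.

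Of the 9 measured goblet cell genes 4 fell in the transgenic epithelium and 0 rose. Those that fell were Muc2, Creb3l1, Creb3l4 and Capn9. Over all genes 5.84% passed as lower and 6.04% as higher. All 9 differences were negative, as were those of 11658 of all 19938 genes, with a median of -0.61 against -0.04 over all genes tested. In 5 of the 9 every transgenic array lay below every control array, which held for 18.2% of all genes. Without transgenic replicate 1, Tff3 and Spdef passed as well, giving 6 of 9 lower and 0 higher and a median of -0.34 (-0.03 over all genes), while 14.5% of all genes were then called lower and 14.0% higher. With any other array left out Creb3l4 was the single member that passed. Some marker lists of other cells, described below, showed the same traits with all arrays. Differences were negative for all 14 enterocyte markers, all 9 of T cells and intraepithelial lymphocytes, and 11 of 12 enteroendocrine markers. Every transgenic array lay below every control array in 9, 8 and 8 of them, in that order. This held for 0 of 6 Paneth and 0 of 8 tuft cell markers. In a preparation of mixed cells, fewer goblet cells and less RNA per goblet cell cannot be told apart.

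**Figure D1:**
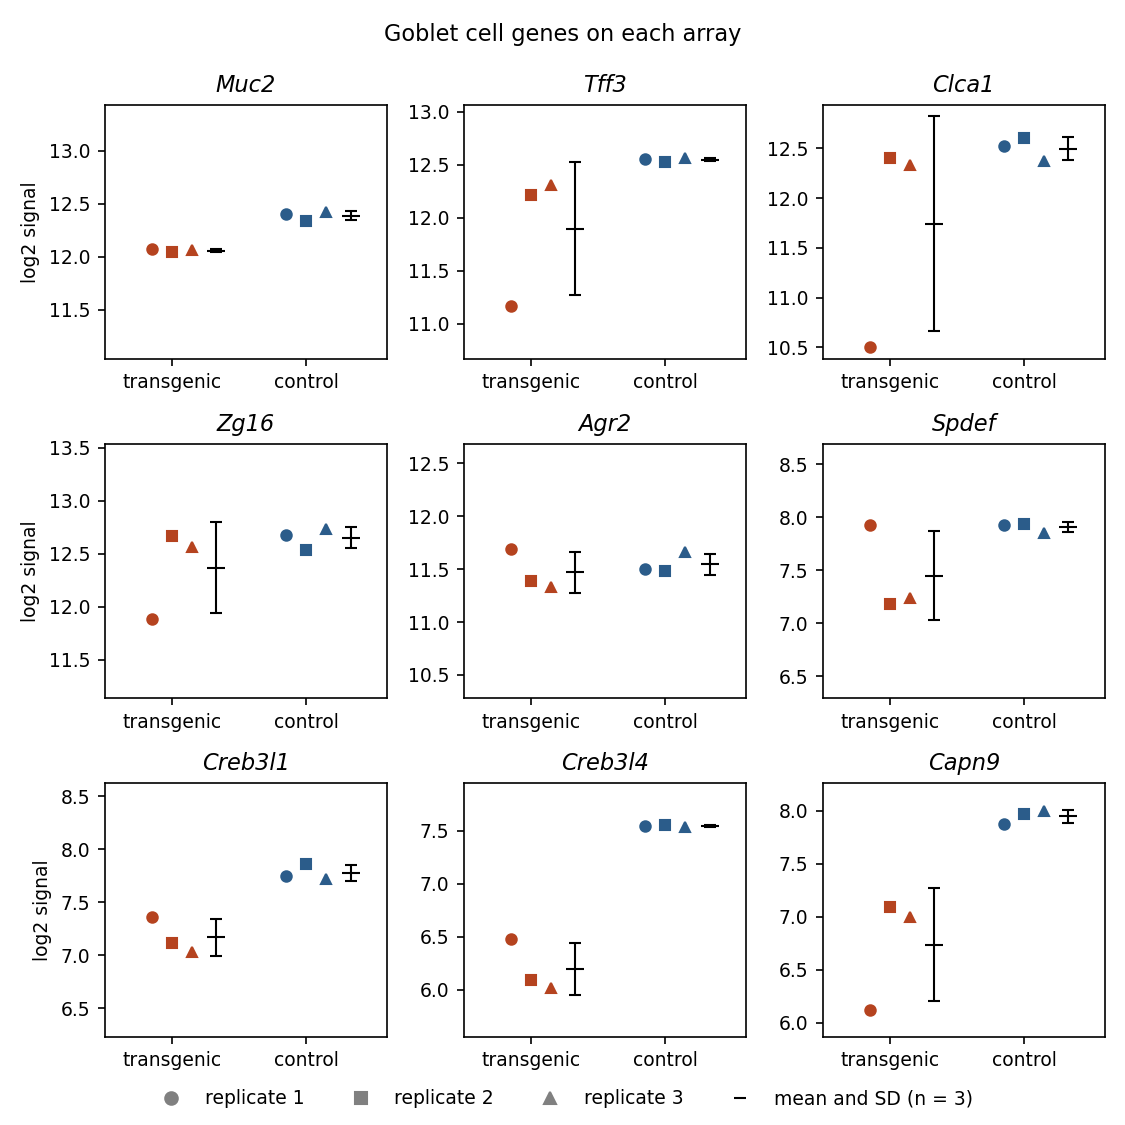
Log2 signal of the 9 measured goblet cell genes on each array (points; the shape gives the replicate), with the mean and SD over 3 arrays in black; each panel has its own vertical range. The 3 Muc2 values of the transgenic arrays lie between 12.04 and 12.07, below the controls at 12.34 to 12.42, while for Clca1 transgenic replicate 1 lies at 10.50 and the other transgenic arrays near the controls.

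Muc2, the gel-forming mucin that gives intestinal mucus its scaffold, had 12.07, 12.04 and 12.06 on the transgenic arrays, against 12.40, 12.34 and 12.42 on the control arrays. The drop was small and even, and the groups did not overlap. The mean was 12.06 ± 0.02 in transgenic and 12.39 ± 0.04 in control epithelium (SD, n = 3 each), so that Muc2 fell by 0.33 (SE 0.0721, adjusted p = 0.0363), to 79.5% of the control level. Leaving out transgenic replicate 1 gave -0.34 with an adjusted p of 0.0141, and leaving out any other array ended the call, with an adjusted p of up to 0.163. Muc2 lay close to the top of the scale, whose highest value was 13.49, where array signals can flatten. Of the 560 genes with a mean signal of 11 or more, 20 passed as lower (3.57%), and how much flattening takes from the Muc2 difference was not tested.

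Tff3, the trefoil peptide of goblet cells that promotes epithelial repair, had 11.17, 12.21 and 12.31 in transgenic against 12.55, 12.53 and 12.56 in control epithelium. Every transgenic array was below the controls, and transgenic replicate 1 was lowest by far. The difference of -0.65 did not pass (SE 0.302, adjusted p = 0.26), and without transgenic replicate 1 it was -0.28 and passed (SE 0.0817, adjusted p = 0.0321).

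Clca1, a secreted metalloprotease that processes Muc2 in mucus, had 10.50, 12.40 and 12.33 on transgenic arrays against 12.52, 12.60 and 12.37 on controls. Relative to the control mean transgenic replicate 1 was at -1.99 and the other transgenic arrays at -0.10 and -0.17, within or close to the range of the controls. The difference of -0.75 did not pass (95% interval -1.99 to 0.48, adjusted p = 0.45), and without that array it was -0.13 (-0.35 to 0.09, adjusted p = 0.409).

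Zg16, a secreted lectin that binds Gram-positive bacteria and keeps them away from the epithelium, behaved in a similar way. Its signals were 11.88, 12.67 and 12.56 in transgenic against 12.68, 12.54 and 12.73 in control animals. The groups overlapped, with only transgenic replicate 1 below every control. The difference was -0.28 (95% interval -0.80 to 0.24, adjusted p = 0.516), and -0.04 (-0.25 to 0.18, adjusted p = 0.863) without transgenic replicate 1.

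Agr2, the disulfide isomerase, had 11.69, 11.39 and 11.33 in transgenic against 11.50, 11.48 and 11.66 in control epithelium. Transgenic replicate 1 was the highest of the 6 arrays and the other transgenic arrays the lowest. The difference of -0.08 had a 95% interval of -0.37 to 0.22 (adjusted p = 0.778), and without transgenic replicate 1 it was -0.18 (-0.40 to 0.03, adjusted p = 0.198). Neither interval shows that the level was the same.

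The transcription factors of the set had mid-range signals, unlike the secreted products near the top of the scale, so the sizes of their differences are not compared. Creb3l4 had 6.48, 6.09 and 6.02 on the transgenic arrays against 7.55, 7.56 and 7.54 on the controls. The controls agreed within 0.01 (SD) and all transgenic arrays were far below them. Creb3l4 fell by 1.35 (95% interval -1.68 to -1.03, SE 0.135, adjusted p = 0.00362), to 39.2% of the control level, and it passed with each array left out in turn, with differences from -1.49 to -1.26 and an adjusted p of up to 0.0311.

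Creb3l1, its relative, which is known as a regulator of secretory capacity and of collagen export in bone, had 7.36, 7.11 and 7.03 in transgenic against 7.75, 7.86 and 7.72 in control epithelium. The groups did not overlap, and transgenic replicate 1 again lay nearest to the controls. Creb3l1 fell by 0.61 (SE 0.112, adjusted p = 0.0215), to 65.5% of control. Without transgenic replicate 1 the difference was -0.71 (adjusted p = 5.07e-04), and without any other array the call was lost (adjusted p up to 0.1).

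Spdef, the ETS factor that drives goblet cell maturation, had 7.93, 7.18 and 7.24 in transgenic against 7.93, 7.94 and 7.85 in control epithelium. Transgenic replicate 1 lay among the controls, and the other transgenic arrays were clearly lower. The difference of -0.46 did not pass (SE 0.207, adjusted p = 0.248), and without transgenic replicate 1 Spdef fell by 0.70 (SE 0.0825, adjusted p = 4.32e-04), to 61.7% of control.

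Capn9, a calpain protease of the digestive tract, had 6.12, 7.09 and 7.0 on transgenic arrays against 7.88, 7.97 and 8.0 on controls. All transgenic arrays were lower, replicate 1 the most. Capn9 fell by 1.22 (95% interval -1.85 to -0.58, SE 0.259, adjusted p = 0.0336), to 43.1% of control. The fall was 0.91 without transgenic replicate 1 (adjusted p = 1.41e-04), and leaving out any other array ended the call (adjusted p up to 0.134).

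**Figure D2:**
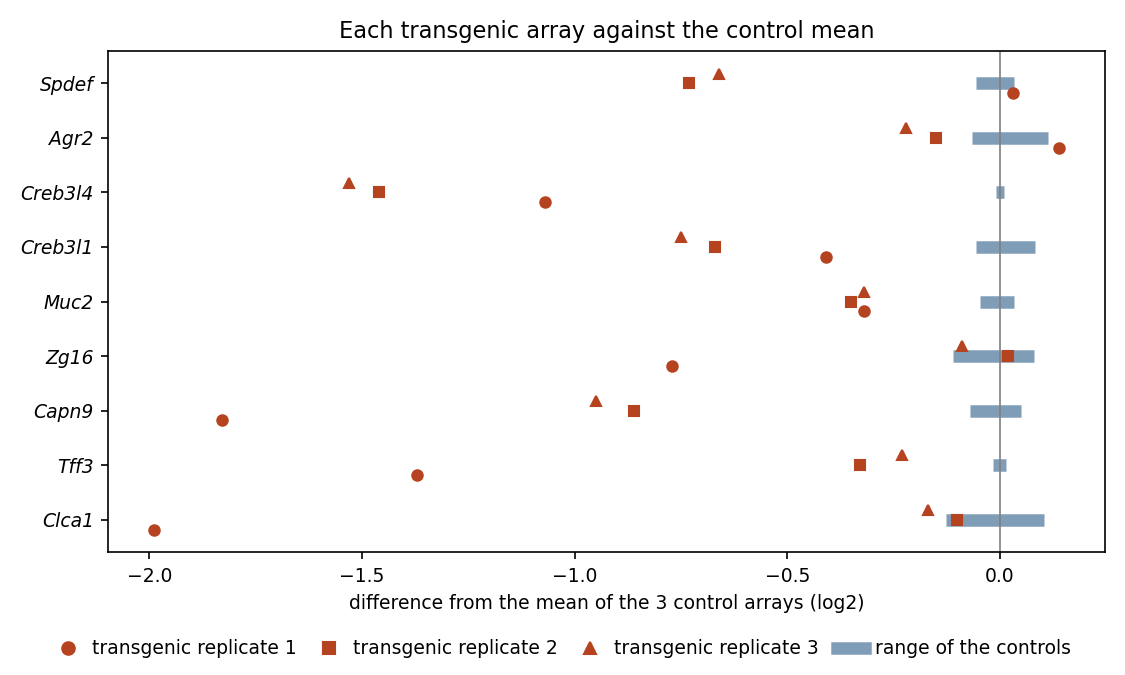
Difference of each transgenic array (points; the shape gives the replicate) from the mean of the 3 control arrays, in log2 units, with the range of the control arrays as a blue bar. From top to bottom the genes run from those where transgenic replicate 1 is the highest transgenic array (Spdef at 0.03 against -0.73 and -0.66) to those where it is the lowest (Clca1 at -1.99 against -0.10 and -0.17).

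The transgenic arrays thus differed from each other for part of the goblet genes. On transgenic replicate 1 the secreted products Clca1, Tff3 and Zg16 were at -1.99, -1.37 and -0.77 relative to the control mean, while Spdef was at 0.03 and Agr2 at 0.14. On transgenic replicates 2 and 3 Spdef, Creb3l1 and Creb3l4 averaged -0.70, -0.71 and -1.49, while Clca1 and Zg16 averaged -0.13 and -0.04. Creb3l1 and Creb3l4 were below every control on transgenic replicate 1 too, at -0.41 and -1.07. Tff3 and Agr2 averaged -0.28 and -0.18 on transgenic replicates 2 and 3. Capn9 was low on all 3 transgenic arrays, at -1.83, -0.86 and -0.95. Muc2, at -0.32, -0.35 and -0.32, was low by nearly the same amount on all 3. With a single array of the first kind, the difference between the arrays has no replicate and was not tested.

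**Figure D3:**
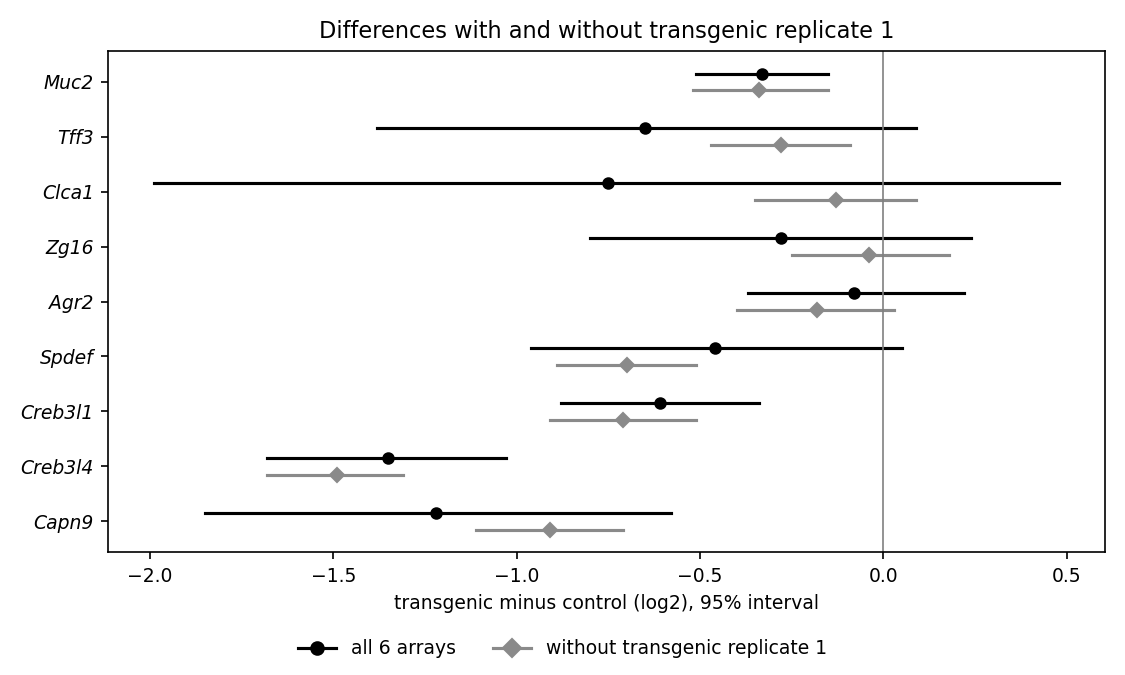
Difference between transgenic and control arrays in log2 units (points) with its 95% interval (lines) for the 9 measured goblet cell genes, from all 6 arrays in black and without transgenic replicate 1 in grey. The interval of Clca1 narrows from -1.99 to 0.48 with all arrays to -0.35 to 0.09, and that of Spdef, -0.96 to 0.05 with all arrays, lies between -0.89 and -0.51 without that array.

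RefSeq promoter windows (assembly GRCm38.p6, 250 bases before to 50 after a gene's start) were found for 6 of the 10 genes: Muc2, Creb3l4, Capn9, Spdef, Agr2 and Fcgbp, with 3 starts for Creb3l4. Those of Muc2, Capn9 and Creb3l4, which fell, are shown so that the members that changed can be read side by side. Capitals mark CAGCTG, the E-box form bound by factors of the Atoh1 class, TGACGT, a cAMP-response-like site, and CCACG, which is part of the ER stress element, searched on both strands. The windows are at chr7:141690090-141690389 on the plus strand for Muc2, chr8:124575861-124576160 on the plus strand for Capn9, and chr3:90243094-90243393, chr3:90242501-90242800 and chr3:90243463-90243762 on the minus strand for Creb3l4 (starts A, B and C).
Muc2: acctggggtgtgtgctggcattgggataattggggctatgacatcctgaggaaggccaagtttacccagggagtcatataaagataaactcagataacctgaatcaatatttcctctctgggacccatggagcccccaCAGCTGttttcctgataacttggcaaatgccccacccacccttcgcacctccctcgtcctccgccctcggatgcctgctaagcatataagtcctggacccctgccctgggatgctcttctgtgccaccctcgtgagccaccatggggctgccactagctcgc
Capn9: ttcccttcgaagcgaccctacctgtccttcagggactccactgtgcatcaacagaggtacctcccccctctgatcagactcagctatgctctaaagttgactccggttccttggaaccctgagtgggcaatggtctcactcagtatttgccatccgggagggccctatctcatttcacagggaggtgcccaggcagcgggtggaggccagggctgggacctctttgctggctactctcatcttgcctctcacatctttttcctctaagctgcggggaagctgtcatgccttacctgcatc
Creb3l4 start A: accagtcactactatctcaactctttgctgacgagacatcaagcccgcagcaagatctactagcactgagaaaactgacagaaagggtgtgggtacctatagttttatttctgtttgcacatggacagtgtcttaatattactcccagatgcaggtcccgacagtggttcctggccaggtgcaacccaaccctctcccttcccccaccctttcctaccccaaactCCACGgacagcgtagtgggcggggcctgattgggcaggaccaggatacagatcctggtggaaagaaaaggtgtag
Creb3l4 start B: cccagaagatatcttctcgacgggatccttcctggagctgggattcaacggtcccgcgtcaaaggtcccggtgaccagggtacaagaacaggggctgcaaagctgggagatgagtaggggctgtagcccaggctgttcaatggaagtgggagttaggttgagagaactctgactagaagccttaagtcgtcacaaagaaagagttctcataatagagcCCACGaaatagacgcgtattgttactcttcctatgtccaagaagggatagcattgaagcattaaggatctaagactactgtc
Creb3l4 start C: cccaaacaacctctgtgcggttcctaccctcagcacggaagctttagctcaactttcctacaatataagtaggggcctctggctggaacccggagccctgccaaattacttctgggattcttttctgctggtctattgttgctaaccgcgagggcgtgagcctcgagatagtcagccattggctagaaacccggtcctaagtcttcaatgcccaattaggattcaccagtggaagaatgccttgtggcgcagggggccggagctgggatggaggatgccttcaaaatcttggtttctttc
Muc2 held CAGCTG, which stood in 16.3% of all 32851 promoter windows of this length, and starts A and B of Creb3l4 each held CCACG, found in 32.8%. Capn9 held none of these 3 motifs, and neither did start C of Creb3l4 or Agr2. Fcgbp held CAGCTG and Spdef TGACGT (7.51% of windows). CAGCTG is also a form of the general E-box CANNTG (72.3% of windows), and the ETS core GGAA was in every window of the set and in 96.0% of all windows. A match of letters is not a binding site, and with motifs this common nothing about these genes follows from it.

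Other genes that mark or serve goblet cells were lower in part. Of 22 measured further goblet products and marker genes 5 fell (22.7%, against 5.84% of all genes) and 0 rose, with a median of -0.39. Nlrp6, an inflammasome sensor that has been tied to mucus release in mice, had 8.25, 8.98 and 9.03 on transgenic arrays against 10.06, 10.12 and 10.13 on controls, and fell by 1.35 (SE 0.214, adjusted p = 0.0138), with a difference of -1.10 without transgenic replicate 1. The others that fell were Mlph, which links vesicles to an actin motor (-0.92, adjusted p = 0.0148), the chemokine gene Ccl6 (-1.79, adjusted p = 0.0278), the membrane protease gene Bace2 (-0.45, adjusted p = 0.0329) and Hepacam2, named after its value was seen (-1.11, adjusted p = 0.0417). Each of these 5 calls failed when control 1 or control 2 was left out, all but that of Mlph without control replicate 3, all but those of Nlrp6 and Hepacam2 without transgenic replicate 2, and those of Ccl6, Bace2 and Hepacam2 without transgenic replicate 3. The adjusted p reached 0.149. On the 5 arrays other than transgenic replicate 1, 14 of the 22 passed as lower (14.5% of all genes did) and 0 as higher, with a median of -0.39.

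Some of these genes were high on transgenic replicate 1 alone, and are named after their values were seen. Retnlb, a bactericidal protein of goblet cells, had 9.21, 4.82 and 4.60 in transgenic against 4.75, 4.80 and 4.61 in control epithelium. Spink4, a protease inhibitor made by secretory cells, had 12.19, 9.24 and 9.19 in transgenic against 11.08, 11.39 and 10.89 in control epithelium. Neither passed with all arrays (adjusted p = 0.541 and 0.578), and Spink4 fell by 1.90 without transgenic replicate 1 (adjusted p = 4.27e-05).

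Among 11 measured mucins outside the set, 1 fell and 0 rose (9.09% against 5.84% of all genes). Muc4, a large membrane-bound mucin, had 7.30, 6.73 and 6.68 in transgenic against 8.13, 8.09 and 8.60 in control epithelium, and fell by 1.38 (SE 0.219, adjusted p = 0.0141). It lost the call without any control array or transgenic replicate 2 (adjusted p up to 0.0594). The membrane mucins of the enterocyte surface did not pass: Muc13 differed by 0.14 (95% interval -0.21 to 0.50) and Muc3 by 0.11 (-0.31 to 0.52). When transgenic replicate 1 was left out, Muc3 rose by 0.29 (adjusted p = 0.0452), Muc13 had the same difference of 0.29 just short of the threshold (95% interval 0.07 to 0.50, adjusted p = 0.0529) and Muc4 fell by 1.57. The gel mucins of stomach and airway, Muc5ac, Muc5b and Muc6, had signals of 5.20 to 5.96 on all arrays and differences of 0.02, -0.07 and 0.05.

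Close relatives of the set members moved in different directions. Of 22 measured relatives 3 fell (13.6%, against 5.84% of all genes) and 1 rose (4.55%, against 6.04%), with a median of -0.13. Agr3, the neighbour and paralog of Agr2, had 5.36, 5.15 and 4.84 in transgenic against 6.03, 5.73 and 6.44 in control epithelium and fell by 0.95 (SE 0.217, adjusted p = 0.0416). Agr3 was dim, with a mean signal above that of only 30.2% of all genes. Clca3a1, a paralog of Clca1, had 9.27, 10.16 and 9.85 in transgenic against 8.06, 7.84 and 8.44 in control epithelium and rose by 1.64 (SE 0.263, adjusted p = 0.0144). Without transgenic replicate 1 these differences were -1.07 for Agr3 and 1.89 for Clca3a1. Clca genes are alike in sequence, and how far array probes tell them apart was not tested. Among the other members of the Creb3 family, none passed: Creb3, Creb3l2 and Creb3l3 had differences of 0.21, -0.79 and -0.34 (adjusted p = 0.575, 0.549 and 0.75). Transgenic replicate 1 alone carried the values of Creb3l2 and Creb3l3, at -2.39 and -1.50 from the control mean. Without it Creb3 rose by 0.42 (adjusted p = 0.0086), Creb3l2 was at 0.01 (95% interval -0.21 to 0.24, adjusted p = 0.96) and Creb3l3 at 0.25 (0.06 to 0.44, adjusted p = 0.0568).

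Of the subunits of the widely expressed calpains, Capn1 and Capns1 fell and Capn2 did not pass. Capn1, a large catalytic subunit, fell by 1.30 (SE 0.256, adjusted p = 0.0262) and Capns1, the small subunit, fell by 0.65 (SE 0.0928, adjusted p = 0.01). Capn2, the other large catalytic subunit, had 8.09, 6.31 and 6.12 in transgenic against 6.55, 6.32 and 6.90 in control epithelium, high on transgenic replicate 1 alone. Its difference was 0.25 (adjusted p = 0.84), and -0.37 (95% interval -0.74 to -0.01, adjusted p = 0.13) without that array. Capn8, the partner of Capn9 in stomach, had a difference of -0.26 that missed the threshold (adjusted p = 0.162). Capn13, a further calpain, had 6.38, 6.94 and 6.84 in transgenic against 8.78, 9.83 and 7.67 in control epithelium. Its difference of -2.04 did not pass (SE 0.526, adjusted p = 0.0599), and without transgenic replicate 1 it was -1.87 and passed (adjusted p = 0.0223). The calls of Agr3, Clca3a1, Capn1 and Capns1 failed when control 1 or control 2 was left out, those of Agr3, Capn1 and Capns1 without control replicate 3, those of Agr3 and Capn1 without transgenic replicate 2, and those of Agr3 and Clca3a1 without transgenic replicate 3. Here the adjusted p reached 0.142. When transgenic replicate 1 was left out, 6 relatives passed as lower and 3 as higher (27.3% and 13.6%, against 14.5% and 14.0% of all genes), with a median of -0.06.

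Of 15 transcription factors of the secretory lineage 1 fell (6.67%, against 5.84% of all genes) and 0 rose, with a median of -0.18. Atoh1, which commits crypt cells to the secretory lineages, had 9.15, 9.16 and 9.34 on transgenic arrays against 9.27, 9.47 and 9.43 on controls. Its difference of -0.17 did not pass (95% interval -0.41 to 0.07, adjusted p = 0.357), nor did the -0.14 without transgenic replicate 1 (adjusted p = 0.403). Neurog3, which specifies enteroendocrine cells, fell by 0.61 (SE 0.119, adjusted p = 0.0262), a call lost without any array other than transgenic replicate 1 (up to 0.116). Gfi1, a repressor that favours goblet and Paneth over enteroendocrine fate, differed by -0.31 (adjusted p = 0.155), and by -0.35 without transgenic replicate 1 (adjusted p = 0.0597). Klf4, a zinc finger factor of terminal goblet differentiation, had 8.43, 10.28 and 10.28 in transgenic against 10.21, 10.37 and 10.03 in control epithelium, low on transgenic replicate 1 alone. Its difference was -0.54 with all arrays and 0.07 without that one (adjusted p = 0.602 and 0.728). Foxa3, of the forkhead family, had 8.14, 7.22 and 7.20 in transgenic against 7.79, 7.97 and 7.94 in control epithelium. Its difference of -0.38 did not pass with all arrays (95% interval -1.01 to 0.26, adjusted p = 0.465), and Foxa3 fell by 0.68 without transgenic replicate 1 (adjusted p = 7.31e-04). Without that array 6 of the 15 passed as lower and 1, Xbp1, as higher, where 14.5% and 14.0% of all genes did.

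Several ER stress sensors and chaperones rose, while Ern2, the form of the sensor IRE1 found in mucus-secreting epithelia, fell. Of 24 measured ER folding and stress genes 11 rose (45.8%, against 6.04% of all genes) and 1 fell (4.17%, against 5.84%), with a median of 0.39. Ern2 had 8.05, 7.75 and 7.65 in transgenic against 8.59, 8.56 and 8.49 in control epithelium, and fell by 0.73 (SE 0.121, adjusted p = 0.0159). Ern1, its widely expressed relative, named after its value was seen, was higher on every transgenic array, with 9.37, 9.19 and 9.22 against 8.87, 8.74 and 8.82 on controls, and rose by 0.45 (adjusted p = 0.0262). Atf6, another sensor, rose by 0.89 (SE 0.109, adjusted p = 0.00629), and the chaperone Hyou1, the co-chaperone Dnajb11 and the isomerase Pdia4 by 0.77, 0.61 and 0.67 (adjusted p = 0.0127, 0.0144 and 0.0156). Xbp1, the transcription factor switched on by IRE1, had 11.41, 11.80 and 11.80 in transgenic against 11.27, 11.35 and 11.41 in control epithelium, a difference of 0.33 that did not pass (adjusted p = 0.184) and passed at 0.46 without transgenic replicate 1 (adjusted p = 0.00389).

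Atf6 passed with each array left out in turn. Ern2 lost its call without any control array or transgenic replicate 2, and Ern1 without any array but transgenic replicate 1. Hyou1, Dnajb11 and Pdia4 lost it without control replicate 1 or 2, Dnajb11 also without control replicate 3 and Pdia4 without transgenic replicate 2. The adjusted p of these 5 genes reached 0.116. Without transgenic replicate 1, 13 of the 24 passed as higher and 3 as lower (14.0% and 14.5% of all genes did), and with any other array left out 1 to 5 passed as higher. Earlier results of these data already showed a rise of this group, and it was not chosen independently of them.

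**Figure D4:**
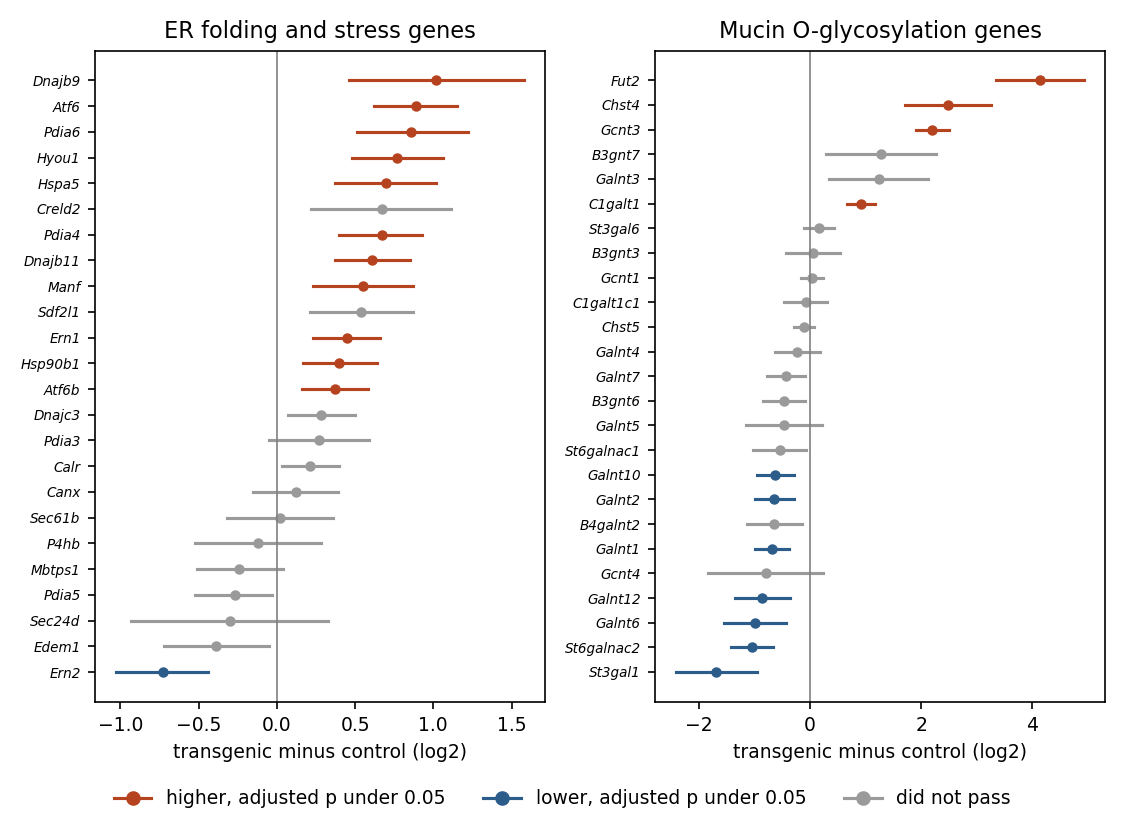
Difference between transgenic and control arrays in log2 units (points) with its 95% interval (lines) for 24 ER folding and stress genes (left) and 25 mucin O-glycosylation genes (right), sorted by size; red passed as higher, blue as lower, grey did not pass. Ern2 is the lowest ER gene at -0.73 and the only one that passed as lower, and Fut2 is the highest glycosylation gene at 4.14.

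Mucins carry dense O-linked sugar chains, and the genes that build them changed in opposite directions. Of 25 measured, 7 fell (28.0%, against 5.84% of all genes) and 4 rose (16.0%, against 6.04%), with a median of -0.44. The 4 that rose were Fut2, which adds the terminal fucose of intestinal mucins, by 4.14 (SE 0.329, adjusted p = 0.00195), Chst4, a sulfotransferase, by 2.49 (SE 0.319, 0.00722), Gcnt3, which branches mucin chains, by 2.20 (SE 0.124, 0.00114), and C1galt1, which makes the core 1 structure, by 0.91 (SE 0.102, 0.00502). Fut2 had 11.48, 12.05 and 12.08 in transgenic against 7.73, 8.33 and 7.13 in control epithelium, far apart in the groups. Gcnt3 had 10.67, 11.02 and 11.02 in transgenic against 8.81, 8.62 and 8.68 in control epithelium. All 4 passed with each array left out in turn, with adjusted p up to 0.047.

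Among the 7 that fell, named after their values were seen, were Galnt2, Galnt6, Galnt10 and Galnt12, which attach the first sugar, with differences of -0.65, -1.0, -0.63 and -0.86, and the sialyltransferases St6galnac2 and St3gal1, with -1.05 and -1.69 (adjusted p from 0.0111 to 0.0464). Galnt1, at -0.69, was the remaining gene of the 7. None of these 7 kept the call with every array left out: all were lost without control replicate 1 and all but that of St3gal1 without control replicate 2 (adjusted p up to 0.164). On the 5 arrays other than transgenic replicate 1, 14 passed as lower and 6 as higher, where 14.5% and 14.0% of all genes did.

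Markers of other cell types were compared on the same arrays. The tissue label was borne out by high Epcam, Cdh1, Krt8 and Vil1, none below 10.82, and by Lct and Sis, brush border enzymes of the jejunum, at 12.15 to 12.42 and 11.39 to 12.70 on all arrays but transgenic replicate 1, where they were 8.16 and 8.97. Of 12 epithelial and jejunal markers 0 fell and 1 rose (8.33%, against 6.04% of all genes), with a median of -0.22. The gene was Cdh1, by 0.34 (adjusted p = 0.0415, and up to 0.161, not a call, with any array other than transgenic replicate 1 left out). Without transgenic replicate 1, 5 passed as lower (41.7%, against 14.5% of all genes) and 1 as higher (8.33%, against 14.0%). Of 14 enterocyte markers 0 passed in limma in either direction, with a median of -0.84. At an unadjusted p under 0.05, 2 of the 14 were lower, and so were 2533 of all 19938 genes. Without transgenic replicate 1, 5 passed as lower (35.7%, against 14.5% of all genes) and the median was -0.18. Relative to the control mean, these markers had a median of -2.23, -0.15 and -0.20 on transgenic replicates 1, 2 and 3. Their summed signal, as log2, was 14.28, 16.11 and 16.06 in transgenic against 16.32, 16.21 and 16.32 in control epithelium.

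Paneth cells, the other secretory cells of the crypt base, had markers that ran the opposite way on transgenic replicate 1. Of 6 measured markers 0 passed in limma with all arrays, nor at an unadjusted p under 0.05. All 6 passed as lower without that array, where 14.5% of all genes did. Relative to the control mean, their median was 0.93, -1.09 and -1.14 on transgenic replicates 1, 2 and 3, and their summed signal as log2 was 14.67, 13.07 and 13.00 in transgenic against 14.07, 13.92 and 14.10 in control epithelium. Ang4 and Itln1, which goblet cells can make too, are on both lists. Itln1 had 12.10, 9.14 and 9.20 in transgenic against 10.89, 11.02 and 10.84 in control epithelium.

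Of 12 enteroendocrine markers 4 fell (33.3%, against 5.84% of all genes) and 0 rose. Their median was -0.62, and -0.39 without transgenic replicate 1, with -1.14, -0.36 and -0.37 on transgenic replicates 1, 2 and 3. Gcg, which encodes proglucagon, fell by 1.54 and passed with each array left out (differences from -1.61 to -1.43), while Pyy, Chgb and Tph1, at -0.62, -0.70 and -0.97, did not. Their calls were lost without any control array, those of Pyy and Tph1 also without transgenic replicate 2 and those of Chgb and Tph1 without transgenic replicate 3 (adjusted p up to 0.122). With transgenic replicate 1 left out, 7 passed as lower (58.3%, against 14.5% of all genes) and 1 as higher (8.33%, against 14.0%). Of 8 tuft cell markers 0 passed in limma with or without transgenic replicate 1 (median -0.17). At an unadjusted p under 0.05 there were 0 with all arrays and 1 without transgenic replicate 1, where 7270 of all 19938 genes were.

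Of 9 markers of T cells and intraepithelial lymphocytes 1 fell (11.1%, against 5.84% of all genes) and 0 rose, with a median of -1.3. The gene was Cd8b1, by 0.55 (adjusted p = 0.0101, lost without any control array, up to 0.0686), which was dim, with signals of 5.27 to 5.93. Without transgenic replicate 1, 7 passed as lower (77.8%, against 14.5% of all genes), with a median of -0.62. The summed signal of the 9 markers as log2 was 8.84, 11.45 and 11.43 in transgenic against 11.85, 11.96 and 12.20 in control epithelium. Of 6 B and plasma cell markers 0 passed in limma with all arrays or without transgenic replicate 1 (median -0.04). With all arrays 1, Jchain, was lower at an unadjusted p under 0.05, as were 2533 of all 19938 genes. Of 10 stromal and muscle markers 1 fell and 0 rose, with a median of -0.1, where 5.84% of all genes passed as lower. This was Vim, by 0.89 (adjusted p = 0.0227, lost without any control array or transgenic replicate 2, up to 0.101). In this list 2 passed as lower without transgenic replicate 1, where 14.5% of all genes did. The part of these shifts between cell types in the goblet gene differences was not tested.

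**Figure D5:**
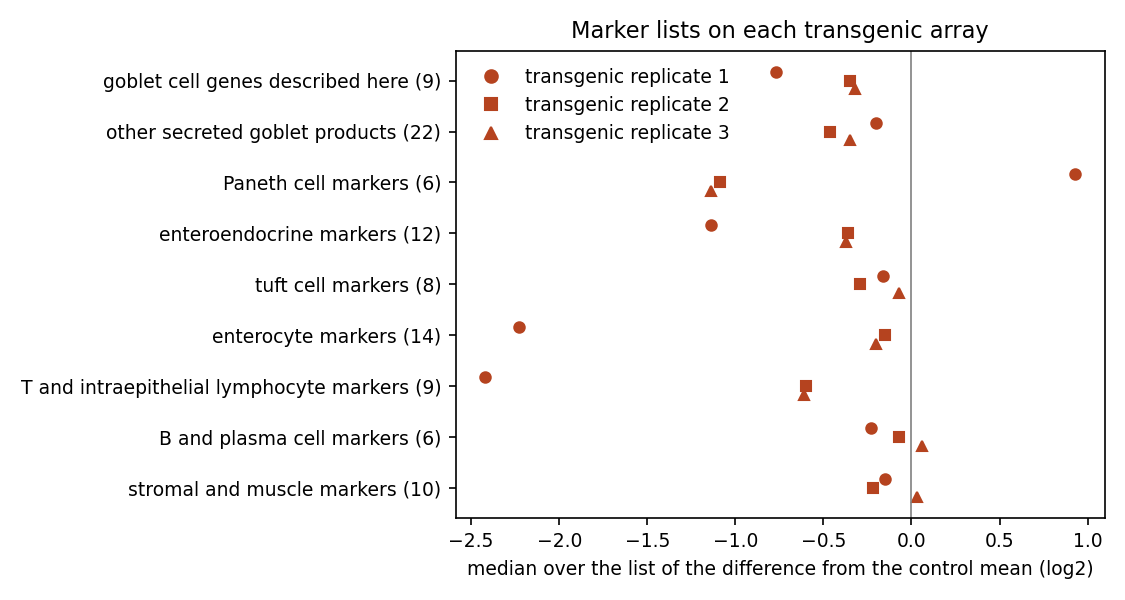
Median over each marker list (number of measured genes in brackets) of the difference from the control mean, in log2 units, on each transgenic array (the shape gives the replicate). The goblet cell genes have medians of -0.77, -0.35 and -0.32 on transgenic replicates 1, 2 and 3, between those of the enterocyte markers (-2.23, -0.15 and -0.20) and of the Paneth cell markers (0.93, -1.09 and -1.14) on replicate 1.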

How the data were processed

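Total RNA of jejunal epithelial preparations, 250 ng a sample, was hybridised to Affymetrix Gene 1.0 ST arrays, per the labels' protocols. The authors deposited log2 values. RMA (background correction, quantile normalization, probe summary) and Partek 6.5 are named in the submitters' processing notes, while the genome build and the settings were not stated there. RMA makes the distributions of all arrays nearly equal, so a change of total RNA per cell cannot show. Array medians ran from 6.27 to 6.34 over 35399 rows, and the number of arrays, 3 a group, limits the precision.

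The platform annotation gave 1 symbol to 21789 rows, several to 1621 and none to 11989. A gene was represented by its row of highest mean among rows with 1 symbol. This gave 19938 genes, without any filter on dim ones. Symbols were checked by Entrez ID in a RefSeq table of GRCm38.p6, and 0 changed. Each of the 9 measured members had 1 such row. Titles put 3 animals in the transgenic and 3 in the control group. Differences were tested with limma (version 3.58.1, R 4.3.3, lmFit, then eBayes) and Benjamini-Hochberg adjustment over all genes, after a test on simulated data. In that simulation 30% of 1.5-fold, 62% of 2-fold and 92% of 4-fold changes passed, so a gene that did not pass may still have changed. ± is an SD.

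The members and the 14 further lists were chosen with earlier results of these data known, so they are described by counts and medians and no list was tested. All members, any gene of the mucin, transcription factor and relative lists, up to 4 genes of smallest p in each other list, and Ern2 and Xbp1 could be named. Other names are stated as chosen after their values were seen. The fit was repeated after quantile normalization or a shift to equal medians, without the dimmest 40% of genes, with blocks on replicate numbers, with trend and robust eBayes, with array weights, on means of a gene's rows, on all rows, and with each array left out, and calls were also counted at an adjusted p under 0.1. Same-numbered arrays did not deviate together.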

Additional observations from a re-analysis of the deposited data

How the results depend on the processing

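The count of goblet cell genes that fell, 4 of 9, was 3 with quantile normalization, with equal array medians, without the dimmest 40% of genes and with trend and robust settings, where Muc2 did not pass. In that order 2371, 2241, 2340 and 1976 of all genes passed, against 2368. The member count was 5 with array weights, which gave transgenic replicate 1 a weight of 0.12, 4 with the mean of a gene's rows and at an adjusted p under 0.1, and 2 (Creb3l1 and Creb3l4) when all rows were tested. Over all genes 2372 passed with the mean of a gene's rows, 3409 at an adjusted p under 0.1 and 1818 when all rows were tested. Leaving out 1 array gave 1 to 6 members lower, and 683 to 5700 genes called in all against 2368. No member passed as higher in any of these settings. With a replicate block on the title number 1 member (Creb3l4) and 733 genes passed. With a replicate block on the description number 4 members and 4019 genes passed, with Spdef in and Muc2 out. Transgenic replicate 1 and control replicate 1 have description numbers with no partner in the other group, so that fit in effect leaves out both arrays. Array weights gave 5770 genes. Deviations of arrays with the same title number correlated at -0.07, -0.17 and -0.12, and those with unlike numbers at -0.02 to 0.15. The deviations are from means of 3 arrays, which transgenic replicate 1 pulls strongly, so this check cannot settle whether the numbers mark pairs. The numbers were taken as names. Creb3l4 passed in all 15 refits, with differences from -1.49 to -1.26, Creb3l1 in 9, Capn9 in 8, Muc2 and Spdef in 3 each, Tff3 in 1, and Clca1, Agr2 and Zg16 in 0. Of 135 refitted member differences 0 reversed a call. Part of these could not, because each member has 1 row. Without dim genes, with trend and robust settings, on row means, on all rows and with the title block its difference stays the same. Sox9, a crypt factor, differed by 0.16 with all arrays, by -0.65 without transgenic replicate 1 (up to 0.62 with another array left out) and by -0.71 with a replicate block on the description number, where it passed. Pla2g2a, a Paneth cell gene, had 0.32 with all arrays, and -0.84 (up to 0.95) and -0.71 in the same settings. The cause was not tested.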

Other observations

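The genes outside the set whose pattern was most like the mean of the 9 goblet cell genes, each centred and scaled over the 6 arrays, were Pbld1, Cyp4f40, Marchf6 and C2cd3, with Pearson correlations of 0.9998, 0.9988, 0.9982 and 0.9978 over the 6 arrays. They share the split between the groups with the set, and with 6 arrays such values carry little weight. Pairs of members correlated from -0.59 (Clca1 and Agr2) to 0.99 (Creb3l1 and Creb3l4), so the mean is not the pattern of each member.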
